A study of Mus musculus with 8 samples.

Results

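The genes described here are 10 of the 23156 in the table, and they prepare peptides for MHC class I molecules. They were chosen by name, with earlier results of these data known: Tap1, Tap2, Tapbp, Psmb8, Psmb9, Psmb10, Psme1, Psme2, Erap1 and Nlrc5. Ribosome footprints, the short stretches of mRNA that ribosomes protect from nuclease, were measured in naive CD4+ T cells of Mettl3 knockout (KO) mice and of wildtype (WT) mice, both on the C57BL/6 background, with 2 footprint libraries per genotype. Before lysis all cells stood for 1 min with 0.1 mg/ml of the elongation blocker cycloheximide, and the labels give no age, no sex, no account of how Mettl3 was removed and no word on whether animals were pooled. The labels do not say that duplicates came from separate mice. A limma p-value here sets the genotype difference against the spread between duplicate libraries, pooled in part over all genes. That spread may be only technical. Mettl3 makes the m6A mark on mRNA, and 4 input RNA libraries that would separate mRNA amount from ribosome density were not analysed here.

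Cells show fragments of their own proteins on MHC class I molecules. The proteasome cuts the proteins, and interferon-gamma makes cells exchange its catalytic subunits for inducible ones, which gives the immunoproteasome. Its peptides enter the endoplasmic reticulum through the TAP transporter, are trimmed there and are loaded on class I molecules with the help of tapasin. The transactivator NLRC5 switches on many genes of this route. T cells, like most nucleated cells, carry class I molecules themselves.

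Footprint levels are given in FPKM, read fragments divided by gene length and by the size of the library. The gene lengths used are not stated and may differ from the stretch that ribosomes cover. Ratios, orders and shares of different genes are therefore approximate. Estimates from the step that a single read makes gave about 5760000 and 2980000 reads for KO libraries 1 and 2, and about 5960000 and 3540000 reads for WT libraries 1 and 2. The lowest read number behind any of the 10 genes was about 85, for Psmb9 in KO library 2, and the highest was about 4320, for Psmb8 in KO library 1. Mettl3 itself stood at 2.44 and 3.32 FPKM in KO libraries, against 24.5 and 21.1 FPKM in WT libraries (log2 fold change -2.62, limma adjusted p = 0.00208, 0.0511 without KO library 2 and 0.166 without a filter on low genes), and 18.4% of its exon bases overlap exons of Tox4. Small RNA genes, left out of the tests, took up 55.7% and 49.4% of all FPKM in KO and 43.7% and 37% in WT. As FPKM divides by gene length, short genes weigh more in these sums, and the percentages are not shares of reads. The CD4 gene was present in every library, at 82 and 101 FPKM in KO and 94.6 and 97.1 FPKM in WT. Of the 5 T cell markers in the table, Cd4 differed least between genotypes (log2 fold change -0.07).

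All 10 genes were well expressed, between the 76.3rd percentile (Erap1) and the 99.1st percentile (Psmb8) of mean FPKM among the 9272 genes tested. The 2 chains of the peptide transporter, Tap1 and Tap2, rose in KO, and 8 of the 10 genes did not pass the threshold (limma on log2(FPKM + 1), Benjamini-Hochberg adjusted p under 0.05 over all genes tested). In these bulk libraries more cells of a type and more RNA per cell cannot be told apart. Thus 2 of the 10 genes were called higher and 0 lower, against 1.56% higher and 0.658% lower among all tested genes. An unadjusted limma p under 0.05 with a higher level in KO was found at 9 of the 10 genes and at 6.23% of tested genes, and with a lower level at 0 of the 10 and at 12.2% of tested genes. Of all calls 70.4% were higher, or 80.5% when the libraries were centred on their medians, which moved the median of all genes to -0.00812 on the log2 scale. At 9 of the 10 genes both KO libraries lay above both WT libraries, which was so at 16.3% of all tested genes, and Psmb9 was the exception. The median log2 fold change of the 10 genes was 0.49, against -0.10 for all tested genes, whose middle 50% ran from -0.30 to 0.11. Their combined level was 0.451% and 0.444% of that of all tested genes in KO, against 0.293% and 0.315% in WT. As the 10 genes were chosen with earlier results of these data known, these contrasts with all tested genes are descriptive only.

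**Figure D1:**
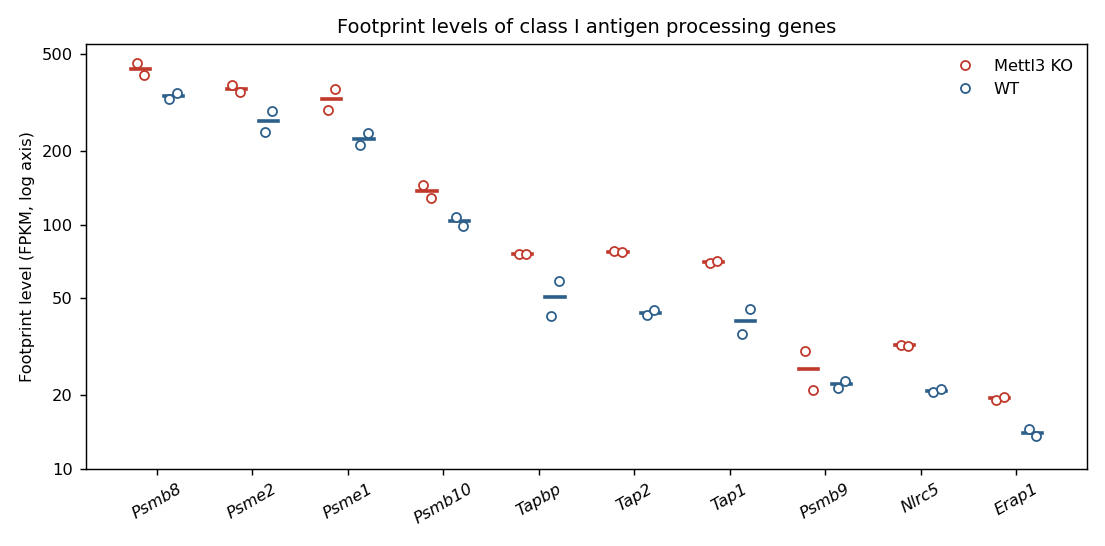
Footprint level in FPKM (log axis) of the 10 genes, ordered by their WT mean, in KO (red, left) and WT (blue, right) libraries. Each circle is a library and each bar the mean of 2. KO circles lie above both WT circles at 9 genes, and at Psmb9 they lie on both sides.

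TAP1 and TAP2 are the chains of the ATP-driven transporter that carries peptides from the cytosol into the endoplasmic reticulum. Both genes lie on mouse chromosome 17 (GRCm38, GENCODE M21), Tap1 from 34187553 to 34197225 and Tap2 from 34203527 to 34216321, with Psmb8 between them and Psmb9 on the other side of Tap1. Tap1 had 69.4 and 71.2 FPKM in KO libraries, against 35.8 and 44.9 FPKM in WT libraries. The groups did not overlap, and the mean was 70.3 ± 1.3 FPKM in KO and 40.4 ± 6.44 FPKM in WT (SD, n = 2 each; log2 fold change 0.79, SE 0.14, limma adjusted p = 0.0432). Tap2 had 78.1 and 77 FPKM in KO libraries, against 42.6 and 44.5 FPKM in WT libraries. Here the libraries of a genotype lay closer together than those of Tap1 in WT, with means of 77.6 ± 0.826 FPKM in KO and 43.5 ± 1.34 FPKM in WT (SD, n = 2 each; log2 fold change 0.82, SE 0.12, limma adjusted p = 0.0178). The level of Tap2 over that of Tap1 was 1.13 and 1.08 in KO and 1.19 and 0.989 in WT. The 2 chains thus had similar FPKM in every library. Both calls ended whenever 1 of the 4 libraries was left out, with adjusted p from 0.0777 to 0.295 for Tap1 and from 0.0796 to 0.19 for Tap2 (limma), and with small RNA genes kept, without a variance trend and without a filter on low genes.

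The promoter of Tap1 is shown because the gene was called and because it shares its start region with Psmb9, the gene of the 10 that differed least. The window runs from 250 bases before to 50 bases after the start site (RefSeq, GRCm38.p6, chr17:34187306-34187605, plus strand), and it shares 275 bases with the window of Psmb9, which is read from the other strand. Of the 10 genes, 8 had a window in that table, and Tap2 and Nlrc5 had none. The windows were searched on both strands for GAAA followed after any 2 bases by GAAA, the core of the interferon-stimulated response element (ISRE). They were also searched for TTCNNNGAA, the interferon-gamma activated site (GAS), and for CCAAT, letters that the Y box of MHC gene promoters contains. The other boxes of those promoters were not searched for, so a CCAAT match alone does not mark a Y box. In the Tap1 sequence capitals mark the CCAAT match, and neither of the interferon elements was found in this window.
Tap1: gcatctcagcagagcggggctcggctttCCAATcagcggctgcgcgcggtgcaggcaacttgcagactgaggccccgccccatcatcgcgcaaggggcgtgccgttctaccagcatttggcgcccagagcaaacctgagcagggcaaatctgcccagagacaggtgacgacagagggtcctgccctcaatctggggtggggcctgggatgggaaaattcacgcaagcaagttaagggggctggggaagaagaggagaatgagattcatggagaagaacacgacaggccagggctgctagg
The exons of Tap1 and Psmb9 overlap by 212 bases on opposite strands, and reads there cannot be told apart unless strand was used in counting.
The CCAAT motif was in the windows of 3 of the 8 genes, Tap1, Psmb9 and Tapbp, and in 37.4% of all 32851 promoter windows. In Tap1 and Psmb9 it is the same stretch of the shared bases.

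Tapbp encodes tapasin, which bridges TAP and empty class I molecules and edits the peptides they bind. It lies on chromosome 17 from 33915899 to 33929292. Tapbp had 76.1 and 75.6 FPKM in KO libraries, against 42.1 and 58.8 FPKM in WT libraries. The groups did not overlap, but the WT libraries differed, and the change did not pass the threshold (log2 fold change 0.60, 95% confidence limits 0.20 and 1.00, limma adjusted p = 0.133). The related editor gene Tapbpl, which encodes TAPBPR and was named after its values were seen, had 34.7 and 34.1 FPKM in KO, against 47.1 and 67.2 FPKM in WT (log2 fold change -0.69, 95% confidence limits -1.11 and -0.27, limma adjusted p = 0.107). Tapbp stood at 2.19 and 2.22 times the level of Tapbpl in KO and at 0.894 and 0.875 times in WT. By FPKM the order of the 2 editors thus differed between genotypes. Exons of other genes overlap part of several exon sets, 24.9% of Tapbp with Gm19412, 14.1% of Tap2 with Gm15821 and 14.7% of Psmb8 with Gm20496, all on the other strand.

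The inducible catalytic subunits of the immunoproteasome are encoded by Psmb8, Psmb9 and Psmb10. They take the place of the constitutive subunits encoded by Psmb5, Psmb6 and Psmb7. Psmb8 (chromosome 17, 34197721 to 34201454) had the highest level of the 10 genes, 461 and 410 FPKM in KO libraries, against 326 and 346 FPKM in WT libraries (log2 fold change 0.37, 95% confidence limits 0.11 and 0.63, limma adjusted p = 0.145). Psmb10 (chromosome 8, 105935735 to 105938444) had 145 and 129 FPKM in KO libraries, against 107 and 99.1 FPKM in WT libraries (log2 fold change 0.40, 95% confidence limits 0.12 and 0.69, limma adjusted p = 0.144). KO and WT libraries did not overlap at Psmb8 or Psmb10, and neither gene passed the threshold. Psmb9 (chromosome 17, 34181987 to 34187764) had 30.3 and 21 FPKM in KO libraries, against 21.4 and 22.9 FPKM in WT libraries. KO library 1 was the highest and KO library 2 the lowest of the 4, and the 95% interval of the log2 fold change ran from -0.26 to 0.63 (0.18, limma adjusted p = 0.645). Without KO library 1 the log2 fold change of Psmb9 was -0.07.

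The 3 inducible subunits had unequal FPKM. Psmb8 stood at 15.2 and 19.5 times the level of Psmb9 in KO and at 15.2 and 15.1 times in WT. Psmb10 stood at 4.78 and 6.15 times the level of Psmb9 in KO and at 5.02 and 4.33 times in WT. The ratio of Psmb8 to Psmb10 was 3.18 and 3.17 in KO and 3.03 and 3.49 in WT.

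The promoter of Psmb8 was the only window of the 8 genes with the GAS letters, which were in 8.3% of all windows (chr17:34197945-34198244, GRCm38.p6, plus strand). Capitals mark the match, whose first base is at position -97 from the RefSeq start site. The whole window lies within the GENCODE span of Psmb8, which begins at 34197721.
Psmb8: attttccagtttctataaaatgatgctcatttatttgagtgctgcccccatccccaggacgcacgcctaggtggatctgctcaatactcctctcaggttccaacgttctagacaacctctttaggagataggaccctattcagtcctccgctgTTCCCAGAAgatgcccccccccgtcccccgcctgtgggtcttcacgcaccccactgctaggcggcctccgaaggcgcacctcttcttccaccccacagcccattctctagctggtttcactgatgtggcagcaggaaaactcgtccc

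The constitutive counterparts had both KO libraries below both WT libraries at each of the 3 genes, and none passed the threshold. Psmb5 had 45.2 and 41.3 FPKM in KO, against 47.5 and 48.7 FPKM in WT (log2 fold change -0.15, limma adjusted p = 0.56). Psmb6 had 16.8 and 19.4 FPKM in KO, against 25.6 and 30.6 FPKM in WT (log2 fold change -0.61, limma adjusted p = 0.105). Psmb7 had 54.7 and 52.1 FPKM in KO, against 57.2 and 64.6 FPKM in WT (log2 fold change -0.18, limma adjusted p = 0.482). That order was common, at 34.6% of tested genes.

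Each inducible subunit was then set against the sum of its pair in FPKM, whose unstated gene lengths affect the size of each share. Psmb8 made up 91.1% and 90.9% of the summed level of Psmb8 and Psmb5 in KO, against 87.3% and 87.6% in WT. Psmb9 made up 64.3% and 52% of its pair with Psmb6 in KO, against 45.5% and 42.7% in WT. Psmb10 made up 72.6% and 71.3% of its pair with Psmb7 in KO, against 65.2% and 60.6% in WT. The KO shares were above the WT shares in each pair, and the share of Psmb9 varied most between KO libraries. Lower levels of the constitutive gene enter these shares too. In KO library 2 Psmb9 had 21 FPKM, below both WT libraries, and its share of 52% came with 19.4 FPKM of Psmb6. Psmb6 had 25.6 and 30.6 FPKM in WT. A higher share is thus not in itself a higher level of the inducible gene. The mean of the 3 shares was 73.7% ± 3.26 in KO and 64.8% ± 1.66 in WT (SD, n = 2 each), a difference of 8.85 percentage points with a p of 0.333 in a two-sided exact permutation test, which is the smallest p that 2 libraries against 2 allow. The value of Psmb5 is uncertain, since 72.5% of the 30-base windows of its coding transcripts also occur in transcripts of other genes, mostly in Gm3375. For Psmb8, Psmb9 and Psmb10 that share was 0%, for Psmb6 16.4% and for Psmb7 4.6%. Psmb6 rested on about 77 and 46 reads in KO libraries and about 122 and 87 reads in WT libraries, which limits the share of Psmb9.

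**Figure D2:**
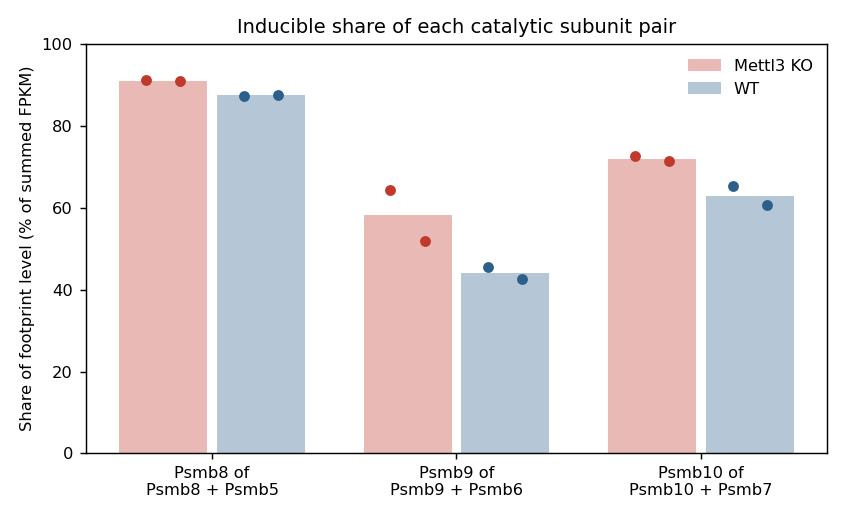
Share of the inducible subunit in the summed FPKM of each catalytic pair, in percent, for KO (red, left) and WT (blue, right). Bars are means of 2 libraries and dots the libraries. KO dots are higher than WT dots in each pair, from 91.1% and 90.9% against 87.3% and 87.6% for Psmb8 to 64.3% and 52% against 45.5% and 42.7% for Psmb9.

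Psme1 and Psme2 encode the alpha and beta chains of PA28, the interferon-inducible cap that opens the proteasome core. They lie on chromosome 14, Psme1 from 55578123 to 55581529 and Psme2 from 55587441 to 55591113, 3.27 and 3.28 Mb from Mettl3. The constitutive gene Psmb5 is on chromosome 14 as well, 2.31 Mb from Mettl3. Psme1 had 296 and 359 FPKM in KO libraries, against 211 and 237 FPKM in WT libraries (log2 fold change 0.54, 95% confidence limits 0.23 and 0.85, limma adjusted p = 0.0963). It passed the threshold when libraries were centred on their medians (limma adjusted p = 0.0437), within a range of 0.0437 to 0.378 over 14 alternatives. Psme2 had 372 and 350 FPKM in KO libraries, against 240 and 293 FPKM in WT libraries (log2 fold change 0.44, 95% confidence limits 0.15 and 0.74, limma adjusted p = 0.135). The genotypes did not overlap at Psme1 or at Psme2. The ratio of Psme1 to Psme2 was 0.796 and 1.03 in KO and 0.877 and 0.809 in WT. The level of Psme2 is uncertain, because 63% of its 30-base windows also occur in its retrogene Psme2b on chromosome 11, which was named after its values were seen and was listed at 95.9 and 79.5 FPKM in KO and 69.2 and 78.1 FPKM in WT. For Psme1 that share was 19.1%, mostly with Gm7776.

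Erap1 encodes the aminopeptidase that trims peptides in the endoplasmic reticulum to the length class I molecules hold. It lies on chromosome 13 from 74639568 to 74693201 and had the lowest level of the 10 genes. Erap1 had 19.1 and 19.7 FPKM in KO libraries, against 14.5 and 13.6 FPKM in WT libraries (log2 fold change 0.44, 95% confidence limits 0.11 and 0.76, limma adjusted p = 0.166). The groups did not overlap, and the change did not pass the threshold. Of its annotated exon bases, 11.5% overlap exons of Cast on the other strand, which had 12.4 and 13.2 FPKM in KO and 17.3 and 20.4 FPKM in WT.

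Psme1 and Erap1 were the 2 genes of the 8 whose windows hold the ISRE core, which was in 3.44% of all windows. In both, the match is read from the minus strand, so the capitals show its reverse complement, and their first base is at position 10 from the start site in Psme1 and at position -4 in Erap1. The Psme1 window is chr14:55578244-55578543 and the Erap1 window chr13:74639603-74639902 (RefSeq, GRCm38.p6, both plus strand). Both windows lie within the GENCODE spans of their genes, which begin at 55578123 for Psme1 and at 74639568 for Erap1.
Psme1: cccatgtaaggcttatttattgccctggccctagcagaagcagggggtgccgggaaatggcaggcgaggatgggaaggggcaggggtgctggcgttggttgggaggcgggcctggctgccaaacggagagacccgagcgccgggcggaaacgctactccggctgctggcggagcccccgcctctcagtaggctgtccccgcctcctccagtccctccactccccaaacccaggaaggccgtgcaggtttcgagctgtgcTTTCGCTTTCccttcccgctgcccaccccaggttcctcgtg
Erap1: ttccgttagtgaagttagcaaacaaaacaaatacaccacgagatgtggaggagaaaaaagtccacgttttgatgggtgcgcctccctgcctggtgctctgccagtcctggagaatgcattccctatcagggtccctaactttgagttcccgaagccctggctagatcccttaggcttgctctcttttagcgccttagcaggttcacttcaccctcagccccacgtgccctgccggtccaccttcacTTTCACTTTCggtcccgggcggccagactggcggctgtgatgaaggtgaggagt
The match reads GAAAGCGAAA in Psme1 and GAAAGTGAAA in Erap1 from the minus strand. Neither gene passed the threshold. Whether matches in these windows go with the fold changes was not tested, and Tap2 and Nlrc5 had no window to search.

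Nlrc5 encodes the transactivator of class I genes, which acts with the RFX and NF-Y factors at their promoters. It lies on chromosome 8 from 94434356 to 94527272. Nlrc5 had 32.2 and 31.8 FPKM in KO libraries, against 20.6 and 21.2 FPKM in WT libraries. The libraries of each genotype lay close together and the groups did not overlap, with a log2 fold change of 0.59 (95% interval 0.29 to 0.89, limma adjusted p = 0.071). The threshold was passed when libraries were centred on their medians (limma adjusted p = 0.042) and when only genes of at least 5 FPKM were tested (limma adjusted p = 0.0456), within a range of 0.042 to 0.317 over 14 alternatives.

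By mean level the order in KO was Psmb8, Psme2, Psme1, Psmb10, Tap2, Tapbp, Tap1, Nlrc5, Psmb9 and Erap1, and Psme2 and Psme1 were the neighbours whose library values overlapped. The WT order was Psmb8, Psme2, Psme1, Psmb10, Tapbp, Tap2, Tap1, Psmb9, Nlrc5 and Erap1, in which Tapbp overlapped Tap2 and Tap2 overlapped Tap1. Psmb9 stood above Nlrc5 in both WT libraries and below it in both KO libraries. The ratio of mean FPKM in KO to that in WT ran from 1.16 for Psmb9 to 1.78 for Tap2, and it was at least 1.5 for Tap1, Tap2, Tapbp and Nlrc5.

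Other genes of the route were read from lists of related genes, which were also chosen with earlier results of these data known. Among partners of peptide loading, 0 of 5 passed the threshold in either direction (median log2 fold change -0.01). The chaperone gene Calr had 199 and 193 FPKM in KO, against 132 and 154 FPKM in WT (limma adjusted p = 0.112), and the oxidoreductase gene Pdia3 had 70.3 and 79.1 FPKM in KO, against 44.6 and 59.8 FPKM in WT (limma adjusted p = 0.163). Of 9 tested class I chains 3 rose and 0 fell, against 1.56% and 0.658% of all tested genes, with a median of 0.50. H2-Q7 had 248 and 261 FPKM in KO, against 130 and 154 FPKM in WT (limma adjusted p = 0.0191). H2-T22 had 117 and 112 FPKM in KO, against 73.1 and 68.7 FPKM in WT (limma adjusted p = 0.0322). H2-K1, a classical heavy chain, had 1180 and 1180 FPKM in KO, against 816 and 851 FPKM in WT (limma adjusted p = 0.0488). Class I genes are close copies of each other among which reads may be split, and the values of H2-Q7, H2-T22 and H2-K1 are uncertain for that reason. H2-K1 was not called when libraries were centred (limma adjusted p = 0.0529). Over their alternatives the adjusted p of these 3 genes reached 0.212, 0.212 and 0.306 (limma), and each call ended whenever 1 library was left out.

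The rest of the proteasome was then compared. Of 11 other subunits of the 20S core 0 passed the threshold (median log2 fold change -0.12, range -0.45 to 0.23), and 6 had both KO libraries below both WT libraries, an order found at 34.6% of the genes tested. The most abundant were Psmb1, at 118 and 106 FPKM in KO and 101 and 90.1 FPKM in WT, and Psma1, at 73.2 and 76.3 FPKM in KO and 78.7 and 71.8 FPKM in WT. Of 18 genes of the 19S regulator, which feeds ubiquitinated proteins into the core, 0 passed (median -0.20, range -0.41 to 0.44). Psmd14, the deubiquitinase of the 19S lid, had 70.5 and 67.1 FPKM in KO and 71.2 and 80.5 FPKM in WT, and the ATPase gene Psmc3 had 53.7 and 52.5 FPKM in KO and 65.4 and 63.5 FPKM in WT. Of 5 assembly factors 0 passed (median 0.12). Pomp, the maturation factor of the core, had 109 and 97.8 FPKM in KO and 103 and 77.4 FPKM in WT. Psmg4, a chaperone of core assembly, had 25 and 19.5 FPKM in KO and 19.1 and 21.7 FPKM in WT. Other caps and inhibitors, 3 genes, had 0 calls (median -0.12), among them Psme3, which encodes PA28 gamma, at 17 and 21.5 FPKM in KO and 15.7 and 22.5 FPKM in WT, and Psme4, which encodes PA200, at 5.12 and 6.67 FPKM in KO and 7.06 and 7.86 FPKM in WT. Whether the inducible genes differ from the other proteasome genes was not tested.

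Other peptidase genes had 0 calls among 7 tested genes (median -0.10). Lnpep, which encodes an aminopeptidase related to Erap1, had 24.1 and 30.9 FPKM in KO and 38.4 and 35.1 FPKM in WT. Tpp2, a cytosolic peptidase gene, had 14.8 and 19.7 FPKM in KO and 16.5 and 18.1 FPKM in WT.

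Genes that regulate this route included called genes of the interferon response. Of 14 transcription factor genes 3 rose and 0 fell (median log2 fold change 0.21), against 1.56% and 0.658% of all tested genes. Irf1 and Stat2 were among those that rose. Irf1, an interferon-inducible factor that binds the ISRE, had 184 and 183 FPKM in KO, against 105 and 97.2 FPKM in WT (log2 fold change 0.85, SE 0.11, limma adjusted p = 0.0146). Stat2, a subunit of the factor that type I interferon activates, had 13 and 14.2 FPKM in KO, against 3.96 and 5.35 FPKM in WT (log2 fold change 1.38, SE 0.18, limma adjusted p = 0.0151). Of the RFX partners of NLRC5, Rfx5 had a log2 fold change of 0.17 (95% interval -0.29 to 0.64), Rfxank of 0.01 (-0.40 to 0.41) and Rfxap of 0.01 (-0.39 to 0.41), named after their values were seen.

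Of 6 genes of interferon-gamma signalling 2 rose and 0 fell (median 0.38), against 1.56% and 0.658% of all tested genes. Ifng had 10.8 and 19.5 FPKM in KO, against 2.22 and 3.1 FPKM in WT (limma adjusted p = 0.0151), and Socs1, an inhibitor of the pathway, had 31.6 and 41.6 FPKM in KO, against 15.7 and 12.8 FPKM in WT (limma adjusted p = 0.0169). The calls of Irf1, Stat2 and Socs1 ended whenever 1 library was left out, and that of Ifng held without KO library 1 alone. Over their alternatives the highest adjusted p of these 4 genes ran from 0.178 to 0.245 (limma).

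**Figure D3:**
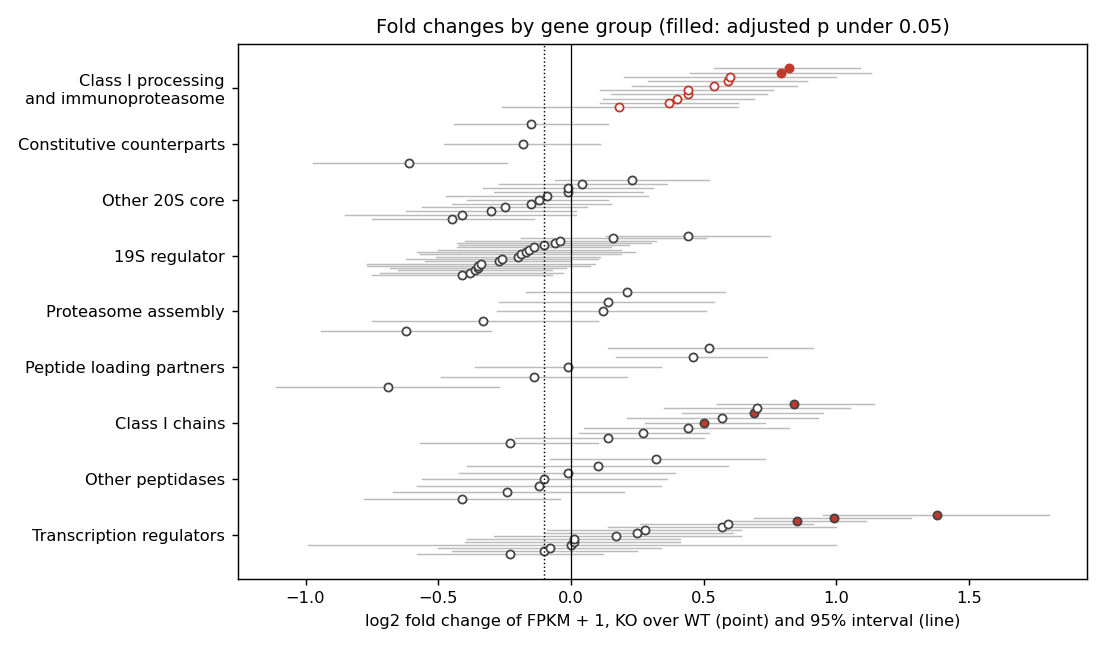
Log2 fold change of FPKM + 1 in KO over WT (points, with 95% intervals as lines) by gene group, with filled points for an adjusted p under 0.05 and a dotted line at the median of all tested genes, -0.10. The 10 antigen processing genes, outlined in red, run from 0.18 to 0.82, while the other 20S core genes run from -0.45 to 0.23.

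Tap1, Tap2, Psmb8, Psmb9 and Tapbp lie in the MHC region of chromosome 17. Within 400 kb on either side of the start of Tap1, 33 protein-coding genes were tested, of which 28 are not among the 10 genes. Of these 28 genes 2 rose, H2-K1 and H2-DMa, and 0 fell, against 1.56% and 0.658% of all tested genes. Their median log2 fold change was -0.07. H2-DMa, a chain of the peptide editor for class II molecules, had 20.2 and 29.7 FPKM in KO, against 5.7 and 7.35 FPKM in WT (log2 fold change 1.77, SE 0.22, limma adjusted p = 0.0128, up to 0.211 and not called when 1 library was left out). The neighbour after Tap2, H2-Ob, had 7.43 and 9.39 FPKM in KO and 12.4 and 11.3 FPKM in WT, and the neighbour before Psmb9, H2-DMb1, had 0.494 and 1.17 FPKM in KO and 1.77 and 0.603 FPKM in WT. Zbtb22, which lies within the annotated span of Tapbp and shares exon bases with it, had 5.65 and 5.55 FPKM in KO and 8.3 and 9.98 FPKM in WT, and Daxx, the neighbour before Tapbp, had 22.3 and 20.8 FPKM in KO and 17.5 and 23.1 FPKM in WT.

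**Figure D4:**
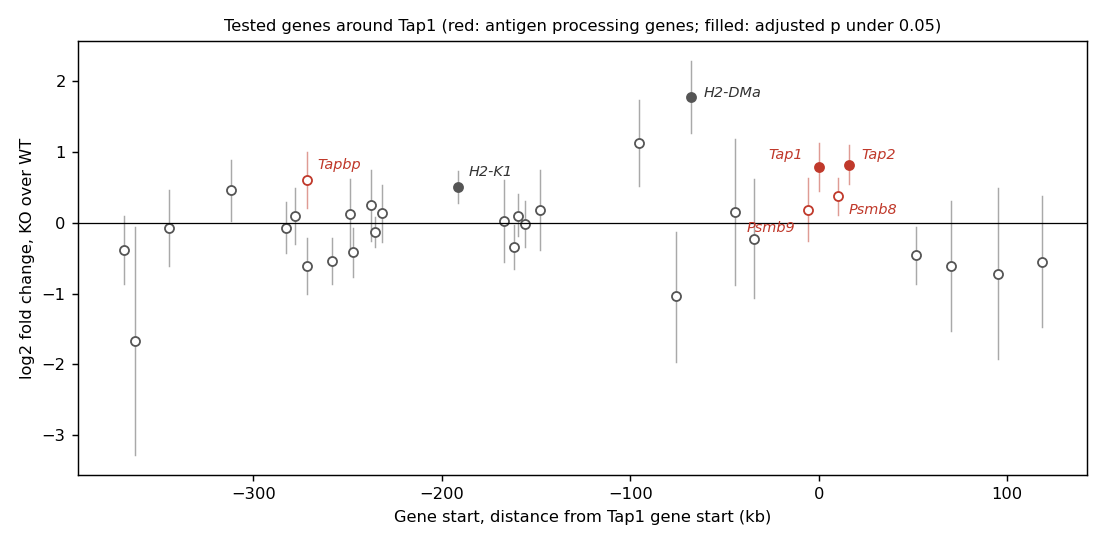
Log2 fold change, KO over WT, of the 33 tested protein-coding genes within 400 kb of Tap1 (points, with 95% intervals), by distance of the gene start from that of Tap1 in kb. Red points are antigen processing genes and filled points have an adjusted p under 0.05. Tap1 (0.79) and Tap2 (0.82) lie above most of the other genes, with H2-DMa (1.77) the highest.

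Near the PA28 genes on chromosome 14, Emc9, which lies between Psme1 and Psme2, had 1.77 and 1.58 FPKM in KO and 4.76 and 3.89 FPKM in WT (log2 fold change -0.99, limma adjusted p = 0.0641), and Rnf31 beyond Psme2 had 8.65 and 7.39 FPKM in KO and 7.99 and 7.63 FPKM in WT. Fitm1, before Psme1, was listed at 0 in all libraries. Around Nlrc5, Herpud1 had 13.7 and 15.8 FPKM in KO and 15.6 and 18.6 FPKM in WT, and Cpne2 was below the filter. The neighbours of Psmb10 were near 0, Ctrl at 0.668 and 1.85 FPKM in KO and 0 and 1.52 FPKM in WT and Lcat at 0.263 and 0 FPKM in KO and 0 FPKM in both WT libraries. Zfp825, before Erap1, had 9.14 and 12.5 FPKM in KO and 10.1 and 14 FPKM in WT.

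The 5 genes whose profile over the 4 libraries was most like the median profile of the 10 genes were Tspan31, Tmem175, Rsph3b, Hist2h3b and Tmem173, which encodes STING. Their root mean square differences from it ran from 0.0179 to 0.0304 on the log2(FPKM + 1) scale. Tmem173 had 47.2 and 48.8 FPKM in KO, against 30.9 and 34.6 FPKM in WT. Tspan31 had 10.1 and 10.2 FPKM in KO, against 6.24 and 6.98 FPKM in WT. Near the filter of 1 FPKM lay Tmem175 (2.05 and 1.95 in KO, 1.04 and 1.13 in WT) and Rsph3b (1.51 and 1.57 in KO, 0.622 and 0.831 in WT). The threshold was not passed by any of these 5 genes.

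Other cells that express these genes, such as B cells, dendritic cells and macrophages, were looked for by their markers. The 5 B cell markers summed to 4.27 and 15.2 FPKM in KO and 22.3 and 15.2 FPKM in WT, with Pax5 listed at 0 throughout. The 5 dendritic cell markers summed to 4.07 and 6.18 FPKM in KO and 5.73 and 5.13 FPKM in WT, and the 7 myeloid markers to 13.9 and 20 FPKM in KO and 24 and 17.9 FPKM in WT, with S100a9 listed at 0. The 4 NK cell markers summed to 1.51 and 1.98 FPKM in KO and 6.14 and 9.76 FPKM in WT, with Ncr1 listed at 0, and Tyrobp fell (limma adjusted p = 0.0168). The 2 CD8 T cell markers summed to 1.47 and 1.28 FPKM in KO and 1.13 and 2.41 FPKM in WT. The 3 platelet markers summed to 0.994 and 0.295 FPKM in KO and 0.527 and 1.18 FPKM in WT. The 5 T cell markers in the table summed to 313 and 309 FPKM in KO and 352 and 400 FPKM in WT. Of these 5 markers 3 had both KO libraries below both WT libraries, an order found at 34.6% of tested genes, and 0 passed the threshold. Their log2 fold changes ran from -0.75 for Cd3g to -0.07 for Cd4. The 4 erythroid markers summed to 10.2 and 45.2 FPKM in KO and 5.98 and 21.9 FPKM in WT. Of 6 tested genes of class II presentation 1 rose, H2-DMa, and 0 fell (median -0.44), against 1.56% and 0.658% of all tested genes. Cd74, the invariant chain, had 30.8 and 79.9 FPKM in KO and 79.3 and 49.6 FPKM in WT, and H2-Ab1 had 22.5 and 58.3 FPKM in KO and 66 and 47.6 FPKM in WT, with KO library 1 the lowest of the 4 at both. The B cell sum was lowest in KO library 1 as well. The part of these marker differences in the results was not tested.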

How the data were processed

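Footprint libraries of naive CD4+ T cells were grouped by genotype as their titles give it, 2 for KO and 2 for WT, made with a ribosome profiling kit and 9 PCR cycles, per the labels' protocols. The authors deposited FPKM, 1 column per library, per the file headers. TopHat, Cuffdiff and mm10 (GRCm38) are named, without versions, per the submitters' processing notes. Not given in the sources used here are the annotation, the gene lengths, the use of strand and how multiply matching reads were shared out. Overlapping or near-identical genes are uncertain for that reason.

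The 10 genes and the 11 lists of related genes were chosen with earlier results of these data known. The tests left out 1215 small RNA genes, recognised by symbol, and kept the 9272 genes that averaged at least 1 FPKM. Values were transformed to log2(FPKM + 1), a scale that understates the change of low genes, and the test of genotype used limma 3.58.1 (R 4.3.3) with a variance trend, two-sided, on 2 residual and 5.19 prior degrees of freedom, with Benjamini-Hochberg adjustment over all genes and a threshold of 0.05. The fit was also run on simulated data with planted changes larger than those of the 10 genes. That run does not show how well changes of their size are called. Intervals have a level of 95%. Symbols were matched to GENCODE M21 (22630 genes). Reads were estimated from the most frequent low value of FPKM times transcript length, taken as 1 read, and are approximate. Of the 4052 genes with a single transcript used for this, 36 and 31 in KO libraries 1 and 2 lay at that value. In WT libraries 1 and 2 it was 34 and 27 genes, so the read numbers rest on few genes. Approximate reads of a gene use its longest coding transcript. Shared windows are the distinct 30-base stretches of a gene's coding transcripts that occur in transcripts of other genes. In each list up to 4 called genes were named, or the 2 of highest mean where fewer than 2 were called, together with the 5 genes of most similar profile and the nearest protein-coding gene on each side. Of the genes this rule picked, 1 is not reported here.

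Alternatives used other pseudocounts, filters and scalings, kept small RNA genes, dropped the variance trend, added the replicate number as a block or omitted single libraries. A test of protein-coding genes only was added after the data were seen. Where a library was left out, the lone library of its genotype was assumed to vary like the others. Other steps ran in Python 3.11.15 with pandas 2.3.3 and numpy 2.4.6, and plots in matplotlib 3.10.9.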

Additional observations from a re-analysis of the deposited data

How the results depend on the processing

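Of the 10 antigen processing genes, 2 were called higher in KO. The count was 4 with libraries centred on their medians (Tap1, Tap2, Psme1 and Nlrc5; 206 higher over all genes, against 145), 1 with the replicate block (Tap2), and 0 with small RNA genes kept, without a variance trend, with no filter on low genes and in each fit without 1 library, and 0 were called lower in all 14 alternatives. With no filter, 0 genes passed limma's adjusted threshold in either direction, although 2061 of 15457 had an unadjusted p under 0.05, against 1707 of 9272 with the filter. Over all genes, 56 were higher and 27 lower with small RNA genes kept, 47 and 21 without a variance trend, and 101 were lower among genes of at least 5 FPKM. Without 1 library, 1 to 37 genes were higher and 0 to 21 lower, in fits with fewer residual degrees of freedom. The calls without KO library 2 were 1 and 0. The cause of the other shifts was not tested. The numbers 1 and 2 do not pair the libraries by the labels, and the correlation of same-numbered deviations across genes was -0.0927. Same-numbered libraries were alike in depth, with about 5760000 (KO) and 5960000 (WT) reads in the libraries numbered 1. Those numbered 2 had about 2980000 (KO) and 3540000 (WT) reads. Whether same-numbered libraries share a batch was not tested. The block gave 121 higher and 49 lower genes, and an adjusted p of 0.0537 for Tap1, 0.0557 for H2-T22 and 0.0803 for H2-K1 (limma).

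The mean inducible share differed by 6.55 to 11.2 percentage points without 1 library. The direction held at 9 of the 10 genes in all alternatives, and Psmb9 ranged from -0.07 to 0.44 without 1 library. The other genes that changed direction were not called in any fit where they did so. Psma1 had 0.09 with centred and 0.07 with rescaled libraries, and Tpp2 had 0.08 and 0.06. Without 1 library, log2 fold changes ran from -0.07 to 0.06 for Psma1, -0.06 to 0.29 for Psmg4, -0.22 to 0.27 for Psme3, -0.21 to 0.18 for Tpp2, -1.0 to 0.34 for Cd74, -1.28 to 0.05 for H2-Ab1, -0.10 to 0.29 for Daxx, -0.62 to 0.17 for H2-DMb1, -0.21 to 1.12 for Ctrl, -0.07 to 0.13 for Rnf31 and -0.35 to 0.08 for Zfp825. Of 737 values of 53 tested genes, those of the naming rule and Psme2b, 632 kept direction and side of the threshold, 76 lost and 7 gained a call. Among the 10 genes read numbers were lowest for Psmb9, at about 85 in KO library 2, and its pair partner Psmb6 had about 46 there.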
